A study of Mus musculus with 18 samples.

Results

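The Ifi200 family is a cluster of interferon-inducible genes on mouse chromosome 1 that lies within Nba2, a lupus susceptibility interval of NZB mice. Its expression was described here in sorted bone marrow LSK (Lin−Sca-1+c-Kit+ cells, the compartment of haematopoietic stem and progenitor cells, HSPCs) and common myeloid progenitors (CMPs). The members were taken by gene symbol, and they were chosen with earlier results of these data known. They are Ifi202b, Ifi203, Ifi204, Ifi207, Ifi209, Ifi211, Mndal and Aim2, and all 8 were found among the 19780 genes of the LSK table and the 18428 genes of the CMP table.

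RNA sequencing covered 18 samples of female mice, 3 in each group. NZBW/F1 mice, a cross of the NZB and NZW strains and a spontaneous lupus model, were sampled at 12 weeks before disease (F1-P) and at 28 to 36 weeks with proteinuria (F1-L). C57BL/6 mice of matching age served as controls for LSK only (B6-Y, young, and B6-O, old). NZBW/F1 mice carry NZB and NZW chromosomes throughout the genome, so differences from C57BL/6 at this locus and elsewhere cannot be told apart, and F1-L differed from F1-P in age as well as in disease. No source used here says whether a sample came from 1 mouse or from several, and the p-values measure the spread between the samples.

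Proteins of this family bind DNA through a HIN domain, and most also carry a pyrin domain, through which they contact other pyrin-domain proteins. Aim2 is a sensor of cytosolic double-stranded DNA that assembles an inflammasome with the adaptor ASC, the product of Pycard. The product of Ifi202b lacks a pyrin domain, binds the same kind of DNA and is known as an inhibitor of Aim2. Many of the genes are induced by type I interferon, and Ifi202b has long been studied as a candidate gene of Nba2.

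In GRCm38 the members lie between the start of Aim2 (chr1:173350879) and the end of Ifi202b (chr1:173982744). Aim2 and Ifi209 are on the plus strand and the other members on the minus strand. Sequence that the members have in common limits how reads can be assigned. Of the 75-base words in the transcripts of Ifi211, 63.6% also occur in another gene, mainly Ifi205, Ifi204 or Mndal. The share was 23.1% for Ifi209, 13.2% for Ifi204, 11.1% for Mndal, 5.71% for Ifi203 and 2.80% for Ifi207, and it was 0% for Ifi202b and Aim2. An annotated Mndal transcript begins at a start site of Ifi203, and 4.27% of the exon bases of Mndal lie in exons of another gene. Levels of Ifi211 are therefore uncertain, and those of Ifi202b and Aim2 are not affected in this way. The reference is the C57BL/6 genome, so a strain difference in alignment and one in expression cannot be told apart.

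Promoter sequences are shown because the family is named for its response to interferon. RefSeq windows of GRCm38.p6, from 250 bases before to 50 bases after the start, matched 7 of the 8 members, with 2 windows each for Ifi203 and Mndal. The core of the interferon-stimulated response element, searched as GAAANNGAA on both strands, occurred in 8.56% of all 32851 windows. It was present in at least 1 window of 4 members, Ifi203, Ifi207, Ifi211 and Mndal. In each of these, 1 match began 35 to 41 bases before the start site. The 30 bases around it are printed 5′ to 3′ on the minus strand, with the matched bases in capitals.
Ifi203 (chr1:173942508-173942537): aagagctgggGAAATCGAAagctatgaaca
Mndal (chr1:173880204-173880233): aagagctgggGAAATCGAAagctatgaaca
Ifi211 (chr1:173913064-173913093): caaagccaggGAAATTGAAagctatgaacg
Ifi207 (chr1:173741831-173741860): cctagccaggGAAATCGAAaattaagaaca
The Ifi203 and Mndal stretches were the same, and the longest run that a window of each had in common was 139 bases. A further match, in the other Mndal window, began 53 bases before its start and is not shown.

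Ifi202b, which had the largest strain difference among the members, had no match to this core in its window. The other motif searched, the gamma-activated site TTCNNNGAA, which reads the same on both strands and occurred in 8.30% of all windows, began 148 bases before the Ifi202b start and was in no window of another member. The 100 bases before that start, on the minus strand at chr1:173982845-173982944, hold neither motif.
Ifi202b: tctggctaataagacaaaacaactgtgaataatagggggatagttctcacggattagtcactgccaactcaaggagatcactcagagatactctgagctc
These matches describe the C57BL/6 reference letters and not binding of any factor.

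Values are CPM scaled by the normalisation factor of each sample (scaled CPM). Each LSK library held 23772252 to 28493747 reads and each CMP library 20001328 to 24761060. Immunoglobulin genes took 16.8% to 36.6% of the reads in NZBW/F1 LSK and 0.301% to 4.76% in C57BL/6 LSK. The summed level of 8 B cell and plasma cell markers was 9482 to 36933 in NZBW/F1 LSK against 277 to 2545 in C57BL/6 LSK. The 8 markers of the sort gate were detected in every group, with summed levels of 1959 to 3349 in LSK. In bulk samples, a change in the share of a cell type and a change in RNA per cell cannot be told apart. The library of B6-O replicate 3 stood apart from its group for several members and in its markers. Its neutrophil markers summed to 9919 against 1580 and 763 in the other B6-O samples, its B cell and plasma cell markers to 2545 against 416 and 277, and immunoglobulin genes took 4.76% of its reads against 0.503% and 0.301%. Results that depend on it are given with and without it, and the part of these cells in its levels was not tested. Other libraries also stood apart from their groups in some markers. Neutrophil markers summed to 4978 in B6-Y replicate 2 against 462 and 446 in the other B6-Y samples. Erythroid markers summed to 2314 in F1-P replicate 3 of LSK, far above the other F1-P LSK samples. The part of such cells in the levels of the members was not tested either.

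The clearest difference between strains was in Ifi202b. In F1-P LSK its level was 33.7, 25.0 and 27.0 scaled CPM, and in F1-L LSK it was 27.0, 19.9 and 32.8. Across the 6 C57BL/6 samples it was 0 in 4, 0.0338 in B6-Y replicate 2 and 0.0334 in B6-O replicate 3. The NZBW/F1 samples were thus all far above the C57BL/6 samples, where the 2 values above 0 each stand for 1 read. F1-P held 1803 Ifi202b reads against 1 in B6-Y, a ratio of scaled levels of 2646 (95% exact interval 474 to 104565, counting error only). F1-L held 1905 against 1 in B6-O, a ratio of 2466 (442 to 97471). In limma, on log2(scaled CPM + 1), which compresses changes of genes this low, the log2 fold change was 4.86 (SE 0.18, limma adjusted p = 4.39e-06) in F1-P against B6-Y. It was 4.74 (SE 0.22, limma adjusted p = 5.08e-05) in F1-L against B6-O. Leaving out an NZBW/F1 library at 1 age left Ifi202b with values in 2 samples, which the filter of 3 samples removed. Without F1-P replicate 1, 2 or 3, 3, 2 and 2 members were then called in F1-P against B6-Y, and 2229, 927 and 1150 of all genes, where the full fit called 2331. With the filter at 2 samples, a setting chosen after seeing the data, 4 to 5 were called with each library left out in turn, and 1357 to 2840 of all genes.

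**Figure D1:**
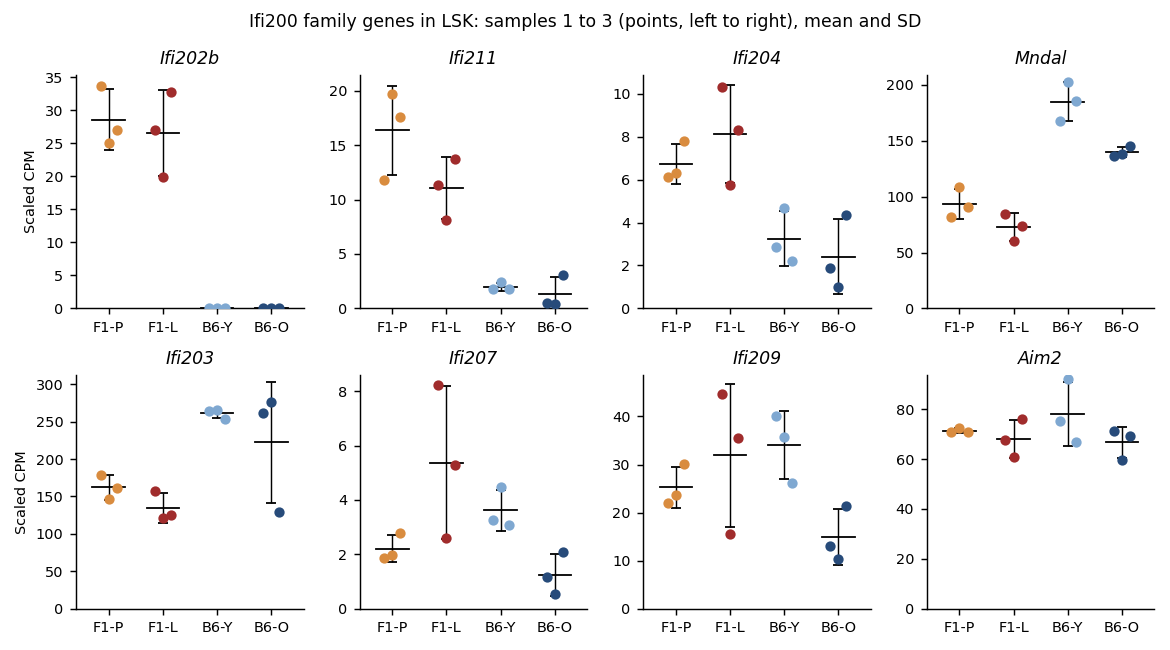
Scaled CPM (vertical axes, from 0) of the 8 members in LSK of each group; points are samples 1 to 3 from left to right, horizontal lines the means and bars the SD (n = 3). Ifi202b lies at 19.9 to 33.7 in NZBW/F1 and at 0 to 0.0338 in C57BL/6, Mndal is lower in every NZBW/F1 sample, and Aim2 overlaps between all groups.

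A gene was called where its Benjamini-Hochberg adjusted p did not exceed 0.05 and it changed by more than 1.5-fold. Of the 8 members, 5 were called in F1-P against B6-Y, 3 higher and 2 lower, where 16.2% of the 14380 genes tested were called (10% higher and 6.18% lower). In F1-L against B6-O 4 were called, 3 higher and 1 lower, against 11.6% of 14381 genes (7.84% higher and 3.75% lower). Both ages in one fit gave 5 calls, 3 higher and 2 lower, against 19% of 15084 genes (12% higher and 7.05% lower). Without B6-O replicate 3 the older comparison had 6 calls among the members and 2285 among all genes, where the full fit had 4 and 1667. Without B6-O replicate 1 it had 2 and 806. Without F1-L replicate 1, 2 or 3 it had 1, 3 and 0 among the members, with Ifi202b then not tested, and 582, 594 and 448 among all genes. With the filter at 2 samples these became 3, 4 and 3 members and 1071, 1087 and 932 genes. The members did not all move in 1 direction, and their median log2 fold change was −0.26 in F1-P against B6-Y and 1.22 in F1-L against B6-O, beside −0.04 and −0.03 over all genes tested.

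Ifi211, another member of the cluster, was higher in NZBW/F1 LSK. F1-P had 11.8, 19.7 and 17.5 scaled CPM and F1-L 11.3, 8.11 and 13.7, whereas B6-Y had 1.77, 2.40 and 1.75 and B6-O 0.467, 0.379 and 3.11. All NZBW/F1 samples lay above all C57BL/6 samples, and the highest C57BL/6 value was B6-O replicate 3. The log2 fold change was 2.52 (SE 0.23, limma adjusted p = 0.000332) at the younger age and 2.55 (SE 0.44, limma adjusted p = 0.0117) at the older age. The older call was lost without F1-L replicate 1 (adjusted p = 0.0664 in limma), F1-L replicate 3 (0.0630) or B6-O replicate 1 (0.0570), and in edgeR's quasi-likelihood test (0.0539). Ifi205, the gene with which Ifi211 shares most sequence, was at 1.38 ± 0.329 (SD, n = 3) in F1-P and 1.42 ± 0.887 in B6-Y, and was not called.

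Ifi204, whose product takes part in sensing of foreign DNA, was higher at lower levels. Its values were 6.10, 6.30 and 7.77 in F1-P, 10.3, 5.73 and 8.31 in F1-L, 2.88, 4.66 and 2.20 in B6-Y and 1.90, 0.979 and 4.35 in B6-O. The strains did not overlap at either age. The log2 fold change was 0.90 (SE 0.24, limma adjusted p = 0.0408) at the younger age, 1.51 (SE 0.39, limma adjusted p = 0.0489) at the older age and 1.20 (SE 0.24, limma adjusted p = 0.00301) over both. Its adjusted p lay close to the threshold within each age, and leaving out any single sample but B6-Y replicate 2, or B6-O replicate 3, ended the call at the age of that sample. In edgeR's quasi-likelihood test Ifi204 was called at neither age (adjusted p = 0.0627 and 0.0875).

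Mndal and Ifi203, the most abundant members, were lower in NZBW/F1. Mndal encodes a nuclear protein related to the human myeloid cell nuclear differentiation antigen. Its values were 81.7, 108 and 91.1 in F1-P, 84.7, 60.3 and 73.8 in F1-L, 168, 202 and 185 in B6-Y and 136, 139 and 145 in B6-O. Every NZBW/F1 sample lay below every C57BL/6 sample. The log2 fold change was −0.98 (SE 0.15, limma adjusted p = 0.00344) at the younger age and −0.94 (SE 0.15, limma adjusted p = 0.00799) at the older age. The older call was lost without F1-L replicate 3 (adjusted p = 0.0546 in limma).

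Ifi203 was at 179, 147 and 161 in F1-P and at 264, 265 and 254 in B6-Y, which did not overlap. In F1-L it was at 157, 122 and 125 and in B6-O at 261, 276 and 129. The first pair of B6-O samples resembled B6-Y, but replicate 3 fell within the F1-L range. The younger comparison was called, with a log2 fold change of −0.69 (SE 0.13, limma adjusted p = 0.00882), and the older was not (−0.65, SE 0.30, limma adjusted p = 0.210). Without B6-O replicate 3 the older one was −1.0 (SE 0.13, limma adjusted p = 0.00477), and Ifi203 was then called. The younger call was lost without F1-P replicate 2 (adjusted p = 0.0604 in limma) or F1-P replicate 3 (0.0514). Over both ages Ifi203 was called (−0.67), except without B6-O replicate 2, where the fold fell below the minimum (−0.57). With the filter at 2 samples, the calls of Ifi203, Mndal and Ifi211 that had been lost without an NZBW/F1 library were kept, and the calls of Ifi204 were still lost.

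**Figure D2:**
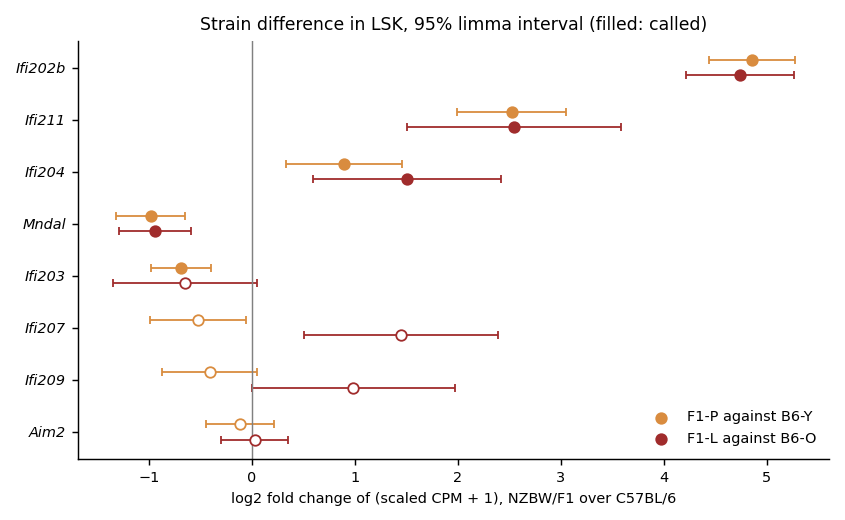
log2 fold change of scaled CPM + 1 in LSK (horizontal axis), NZBW/F1 over C57BL/6, for each member at the younger age (F1-P against B6-Y) and the older age (F1-L against B6-O); bars are 95% intervals from limma and filled points were called. Ifi202b, Ifi211 and Ifi204 lie above 0 and Mndal below 0 at both ages, Ifi207 lies at −0.52 and 1.45, and Aim2 at −0.12 and 0.03.

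Aim2 itself showed no detected difference between strains. Its values were 70.7, 72.6 and 71.0 in F1-P, 67.6, 60.8 and 76 in F1-L, 75.4, 92.2 and 66.9 in B6-Y and 71.3, 59.7 and 69.1 in B6-O. The 4 groups overlapped. Over both ages the log2 fold change was −0.04, with a 95% interval of −0.25 to 0.17 (adjusted p = 0.764 in limma).

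For Ifi207 and Ifi209 the strain differences had opposite signs at the younger and the older age, and none was called. Ifi207 was at 1.85, 1.98 and 2.77 in F1-P, below all of B6-Y at 3.25, 4.49 and 3.10. In F1-L it was at 8.21, 2.58 and 5.30, above all of B6-O at 1.15, 0.537 and 2.07. The order of the strains was thus reversed between the ages, with log2 fold changes of −0.52 (SE 0.20, limma adjusted p = 0.118) and 1.45 (SE 0.40, limma adjusted p = 0.0603). The older difference was called without B6-O replicate 3 (1.70, adjusted p = 0.0342 in limma) or without F1-L replicate 2 (1.81, adjusted p = 0.0489 in limma), in the limma fit of all 12 LSK samples (1.45, adjusted p = 0.0126), and by edgeR's likelihood ratio test (adjusted p = 0.00925) and DESeq2 (adjusted p = 0.00409). Ifi209 was at 21.9, 23.7 and 30.1 in F1-P, 44.7, 15.6 and 35.5 in F1-L, 40.1, 35.8 and 26.2 in B6-Y and 13.0, 10.4 and 21.4 in B6-O. The strains overlapped at both ages for this gene, and its log2 fold changes of −0.41 and 0.99 did not pass the test (limma adjusted p = 0.213 and 0.182), although DESeq2 called the older one (adjusted p = 0.0463).

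Markers of monocytes, macrophages and dendritic cells moved with these 2 genes and, within the groups, with Ifi204. The summed level of the 9 markers was 89.8, 94.9 and 140 in F1-P, 366, 129 and 285 in F1-L, 219, 247 and 174 in B6-Y and 90.3, 75.3 and 195 in B6-O. Within each LSK group the order of the samples was the same as for Ifi207 and for Ifi204. For Ifi209 it was the same except in B6-Y. None of the 9 markers was at 0 in every sample of a group. Neutrophil markers had the sample order of Ifi207 and Ifi204 as well in F1-P, B6-Y and B6-O, but not in F1-L. They summed to 271, 473 and 1177 in F1-P, 462, 4978 and 446 in B6-Y and 1580, 763 and 9919 in B6-O. The part of cells of either kind in the levels of Ifi204, Ifi207 and Ifi209 was not tested.

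Per kilobase of exon, the order of the members also differed between strains. In B6-Y LSK the mean level was 51.0 ± 4.71 scaled CPM per kb (SD, n = 3) for Mndal, 38.9 ± 0.921 for Ifi203, 22.3 ± 3.67 for Aim2 and 9.60 ± 2.01 for Ifi209. Ifi211, Ifi207 and Ifi204 followed at 1.11, 1.06 and 0.912 and did not differ beyond their spread, and Ifi202b was last at 0.00663. In F1-P LSK Mndal at 25.8 ± 3.71 and Ifi203 at 24.2 ± 2.44 lay within each other's spread. Aim2 at 20.4 ± 0.301 came next, and Ifi202b at 16.8 ± 2.68 stood between Aim2 and Ifi211 at 9.17, Ifi209 at 7.12, Ifi204 at 1.89 and Ifi207 at 0.644. F1-L LSK had Mndal at 20.1, Ifi203 at 20.1, Aim2 at 19.5 and Ifi202b at 15.7 ± 3.81, and these neighbours did not differ beyond their spread.

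As a share of the summed level of the 8 members, Ifi202b held 6.19% to 8.29% in F1-P, 6.58% to 8.85% in F1-L and at most 0.00893% in C57BL/6. Mndal held 20.1% to 26.8% in F1-P, 19.9% to 20.6% in F1-L, 30.2% to 34.4% in B6-Y and 28% to 38.8% in B6-O. Aim2 held 16.4% to 20.6% in NZBW/F1 and 12.3% to 18.5% in C57BL/6. The summed level was 404 to 408 scaled CPM in F1-P and 539 to 607 in B6-Y, which did not overlap, but 295 to 411 in F1-L and 374 to 486 in B6-O, which did.

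**Figure D3:**
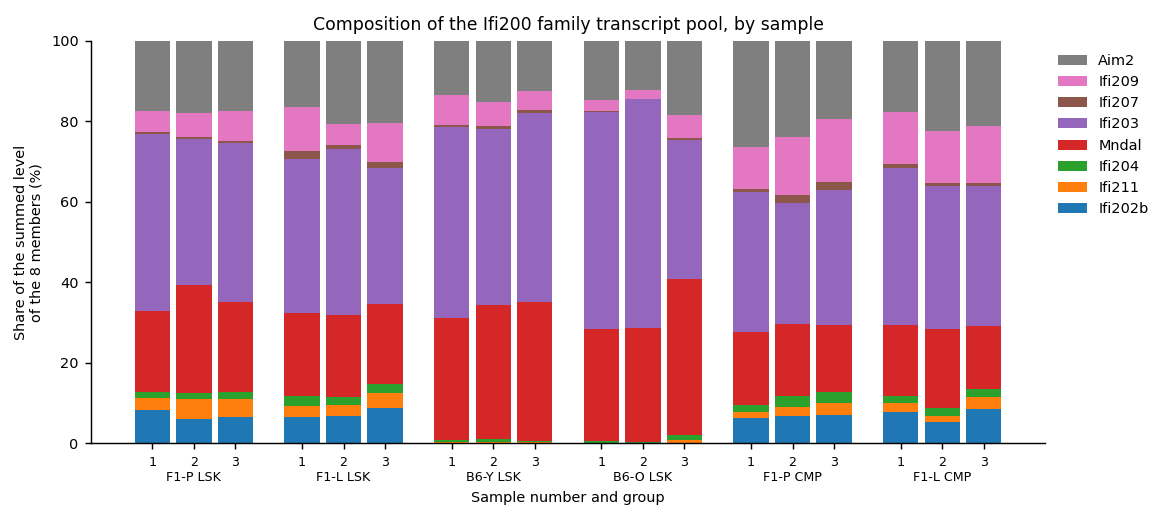
Share of each member in the summed scaled CPM of the 8 members (vertical axis, percent), 1 bar per sample, grouped by group and cell type. The Ifi202b segment holds 5.25% to 8.85% in the NZBW/F1 samples of either cell type and is not visible in C57BL/6.

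Other genes of the same cluster also split in direction. Of the 6 that were in the LSK table and tested, 2 were called higher and 2 lower in F1-P against B6-Y (median log2 fold change 0.39), and 2 higher in F1-L against B6-O (median 1.04), beside the 16.2% and 11.6% of all genes called. The older count was 0 without any 1 F1-L sample or B6-O replicate 2, 1 without B6-O replicate 1, and 3 without B6-O replicate 3. Ifi214 reached 1 only in F1-L at that age, so it was not tested without an F1-L sample. With the filter at 2 samples the older count was 1 without any 1 F1-L sample. Ifi214, which shares sequence with Ifi209, was at 4.43 to 6.22 in F1-P and 0.791 to 1.67 in B6-Y, and at 2.27 to 6.33 in F1-L and 0.284 to 0.669 in B6-O. Its log2 fold changes were 1.54 and 1.58 (limma adjusted p = 0.00259 and 0.0259). The pseudogene Ifi203-ps was at 16.5 to 17.6 in F1-P and 3.89 to 7.47 in B6-Y, and at 13.1 to 14.8 in F1-L and 1.91 to 6.78 in B6-O, with log2 fold changes of 1.47 and 1.51 (limma adjusted p = 0.00385 and 0.0394). Ifi213 and Ifi206 were lower in F1-P than in B6-Y, by log2 fold changes of −1.12 and −0.92 (limma adjusted p = 0.0146 and 0.00829), and neither was called at the older age. Over both ages Ifi208 was called as well (1.07, adjusted p = 0.00731 in limma).

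Along chromosome 1 from Fcgr2b to Exo1 (chr1:170958617-175913489), the other genes were counted apart from the cluster. Outside the members and the cluster genes listed, 8 of 56 genes tested (14.3%) were called in F1-P against B6-Y and 10 of 60 (16.7%) in F1-L against B6-O, beside the 16.2% and 11.6% of all genes. Their median log2 fold changes were −0.02 and −0.01. Together with the cluster genes listed, 12 were called at each age. With each sample left out, this count was 5 to 11 at the younger age, beside 927 to 2229 of all genes. At the older age it was 2 to 15, beside 448 to 2285 of all genes. With the filter at 2 samples the counts were 8 to 13 and 7 to 17, beside 1357 to 2840 and 908 to 2449. The neighbours with the largest rises called at both ages, apart from Ifi214, were Slamf9, Slamf7 and Itln1. Slamf9 was at 12.6 to 32.7 in F1-P, 13.8 to 35.8 in F1-L, 0.465 to 1.82 in B6-Y and 0.253 to 4.08 in B6-O, so that the strains did not overlap. Slamf7, a surface receptor of plasma cells and other leukocytes, was at 71.3 to 206 in F1-P, 71.6 to 76.9 in F1-L, 13.7 to 25.8 in B6-Y and 2.59 to 19.2 in B6-O, in the libraries with the higher B cell and plasma cell markers given above. That its level comes from such cells was not tested. Itln1, which encodes intelectin, was at 3.13 to 5.01 in NZBW/F1 and at 0 to 0.0338 in C57BL/6. Pcp4l1 was the only neighbour called lower at both ages, with log2 fold changes of −1.57 and −1.64 (limma adjusted p = 0.0131 and 0.00235).

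**Figure D4:**
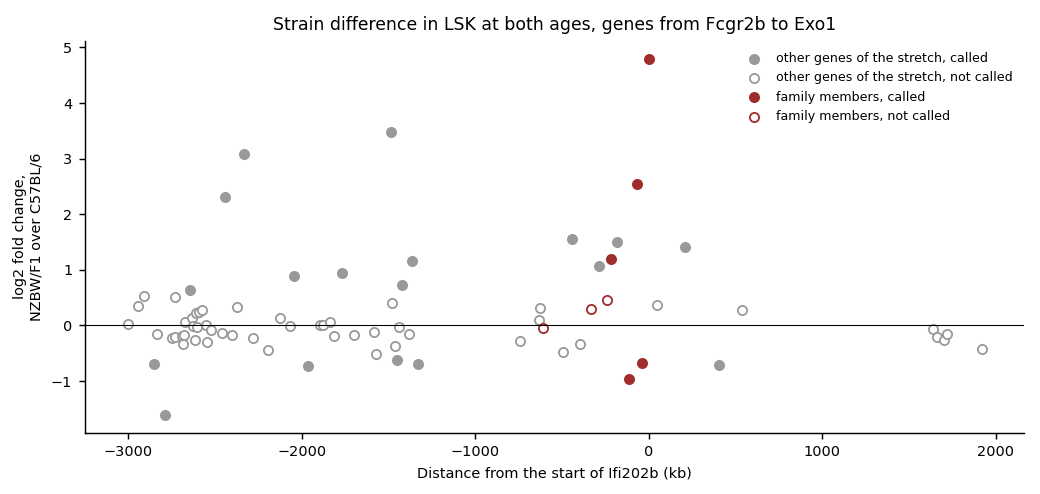
log2 fold change in LSK, NZBW/F1 over C57BL/6 at both ages (vertical axis), against the distance of each gene's first base from that of Ifi202b in kb (horizontal axis), for the tested genes from Fcgr2b to Exo1; red points are the members, grey points other genes, and filled points were called. Ifi202b has the largest value, 4.80, and the called members Mndal (−0.96) and Ifi203 (−0.67) lie below 0 within the same cluster.

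Genes of DNA sensing and the inflammasome, a list of 20 of which 19 were in the table, were mostly not called. In each strain comparison 1 was called higher and 1 lower, with medians of −0.17 and −0.09 at the younger and older age, beside the 16.2% and 11.6% of all genes called. The younger count of 2 became 1 without F1-P replicate 2 or 3 or B6-Y replicate 1. The older count of 2 became 5 without B6-O replicate 3 and 1 without any other sample. Pycard, which encodes the Aim2 adaptor ASC, was the one that was lower. It was at 9.12 ± 1.19 (SD, n = 3) in F1-P and 25.2 ± 5.11 in B6-Y (log2 fold change −1.36, SE 0.19, limma adjusted p = 0.00297), and at 9.15 ± 0.783 in F1-L and 31.3 ± 7.27 in B6-O (−1.65, SE 0.21, limma adjusted p = 0.00310). No NZBW/F1 sample reached the lowest C57BL/6 sample. Zbp1, a sensor of Z-form nucleic acids, was the one that was higher, at 53.9 ± 23.0 against 16.2 ± 3.91 and 37.9 ± 1.71 against 13.2 ± 6.49 (log2 fold changes 1.60 and 1.54, limma adjusted p = 0.0186 and 0.0175).

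Of 20 interferon-stimulated genes outside the family, 0 were called higher and 11 lower in F1-P against B6-Y, with a median log2 fold change of −0.91. In F1-L against B6-O 1 was called higher and 1 lower, with a median of −0.33. The older count of 2 became 4 without B6-O replicate 3 and 0 without any other sample, and the younger count ranged from 9 to 13. Of all genes, 16.2% and 11.6% were called at the younger and the older age. Oasl2 and Oasl1, of the oligoadenylate synthetase-like family, had the largest falls at the younger age. Oasl2 was at 21.3 ± 5.52 (SD, n = 3) in F1-P and 72.8 ± 17.7 in B6-Y, and Oasl1 at 5.91 ± 1.52 and 17.8 ± 2.37. At the older age Herc6 was higher and Rtp4 lower, with log2 fold changes of 0.87 and −0.78 (limma adjusted p = 0.0263 and 0.0288). In F1-P against B6-Y, Ifi202b, Ifi211 and Ifi204 were called higher, and 11 of these 20 genes, Mndal and Ifi203 were called lower. In F1-L against B6-O the same members were called higher, with 1 of these 20 genes higher and 1 lower. A relation between the members and these genes was not tested.

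Among 15 genes of interferon receptors and signalling, 2 were called higher and 3 lower in F1-P against B6-Y and 2 higher and 0 lower in F1-L against B6-O, with medians of −0.09 and 0.24, beside the same 16.2% and 11.6% of all genes. The younger count of 5 became 1 without F1-P replicate 2, 3 without F1-P replicate 3 or B6-Y replicate 1, and 2 without B6-Y replicate 3. The older count of 2 became 0 without F1-L replicate 1 or 3 or B6-O replicate 1, and 1 without F1-L replicate 2 or B6-O replicate 2. Socs1, an inhibitor of cytokine signalling, was called higher at both ages (log2 fold changes 1.01 and 1.07, limma adjusted p = 0.0397 and 0.0105). Tyk2, a kinase of the type I interferon receptor, was called higher as well (0.86 and 0.60, limma adjusted p = 0.0406 and 0.0315). Usp18, a negative regulator of the same receptor, was lower at the younger age (−1.09, adjusted p = 0.0143 in limma), and so was the transcription factor Irf8 (−0.82, adjusted p = 0.00604 in limma).

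The transition from F1-P to F1-L in LSK gave no calls among the members by limma, where 4 of 14332 genes (0.0279%) were called. At an unadjusted p under 0.05 there was 1 member (12.8% of all genes), Ifi207, with a log2 fold change of 0.90 (SE 0.34, unadjusted p = 0.0336, limma adjusted p = 0.336). On the reads recovered from the values, edgeR's quasi-likelihood test, its likelihood ratio test and DESeq2 called 0 members, with 0.0209%, 4.58% and 5.12% of all genes called. Neutrophil markers summed to 271, 473 and 1177 in F1-P LSK and to 11168, 4478 and 1766 in F1-L LSK, which did not overlap. B cell and plasma cell markers went the other way, also without overlap. They summed to 14412, 36933 and 33369 in F1-P LSK and to 9554, 9482 and 12560 in F1-L LSK. The part of these cells in the value of Ifi207 was not tested. Ifi202b was at 28.6 ± 4.55 (SD, n = 3) in F1-P and 26.6 ± 6.47 in F1-L, and the groups overlapped. Its log2 fold change was −0.12, with a 95% interval of −0.60 to 0.36 (adjusted p = 0.872 in limma).

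With age in C57BL/6 LSK, the 7 members that passed the filter (Ifi202b did not) had log2 fold changes from −1.18 to −0.22, none of them called, as were 0% of 14005 genes. Ifi209, Ifi207 and Mndal had an unadjusted p under 0.05 (6.62% of all genes). Every B6-O sample lay below every B6-Y sample for these genes, and how many of all genes separate in this way was not counted. Their log2 fold changes were −1.18 (SE 0.29), −1.08 (SE 0.29) and −0.40 (SE 0.14), with adjusted p of 0.348, 0.386 and 0.588 in limma. DESeq2 called Ifi209 (adjusted p = 0.0180, 1.48% of genes called), whereas edgeR's quasi-likelihood test (0% of genes) and likelihood ratio test (0.814%) called 0 members.

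Whether NZBW/F1 and C57BL/6 mice differed in these changes was tested by the interaction. None of the 8 members was called in limma, nor was any of 15084 genes (0%). Ifi207 had the largest value among the members, 1.98 (SE 0.47, 95% interval 0.94 to 3.01, unadjusted p = 0.00137, adjusted p = 0.766 in limma), and Ifi209 followed at 1.39 (SE 0.50, limma adjusted p = 0.976). These 2 were the members under an unadjusted p of 0.05, as were 3.92% of all genes. DESeq2 called Ifi207 (adjusted p = 0.0416, 0.192% of genes called), while in edgeR the quasi-likelihood test (0%) and the likelihood ratio test (0.0663%) called 0 members. Ifi202b had 1 read at each age in C57BL/6, so there was no measured change there to compare with that in NZBW/F1.

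In CMPs, which were profiled in NZBW/F1 mice only, Ifi202b was detected in every sample. Its level was 6.77, 10.9 and 20.5 scaled CPM in F1-P and 15.2, 4.95 and 15.6 in F1-L. The groups overlapped widely, with F1-P replicate 3 highest and F1-L replicate 2 lowest. The log2 fold change was −0.10 (SE 0.53, 95% interval −1.37 to 1.17, adjusted p = 0.953 in limma).

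The fitted means of all 8 members were lower in F1-L than in F1-P CMPs. Their log2 fold changes ran from −0.70 to −0.03 (median −0.18, beside 0.04 over all genes), and 0 were called (1 of 12926 genes, 0.00774%). At an unadjusted p under 0.05 there were 0 members against 9.80% of all genes, and edgeR's quasi-likelihood test (0.00774%), likelihood ratio test (2.38%) and DESeq2 (2.72%) also called 0. The summed level of the family was 107, 159 and 288 in F1-P and 196, 94.3 and 182 in F1-L. Samples within a group differed more than the groups did.

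The shares of Ifi202b and Ifi203 varied less than the sum, but that of Ifi207 ran from 0.716% to 2.11% in F1-P CMPs. Ifi202b held 6.31% to 7.10% of the sum in F1-P CMPs and 5.25% to 8.59% in F1-L CMPs, and Ifi203 30.1% to 34.8% and 34.8% to 38.9%. Marker sums moved with the summed level. The 9 markers of monocytes, macrophages and dendritic cells summed to 91.8, 232 and 358 in F1-P CMPs and to 144, 66.2 and 173 in F1-L CMPs, the same sample order as the family in F1-P, and with the same lowest sample in F1-L. The gate markers of the sorted cells themselves had the same order in F1-P, at 2176, 3715 and 5422, and the same lowest sample in F1-L, at 3427, 1915 and 4353. So did the B cell and plasma cell markers, at 111, 304 and 411 in F1-P and 120, 71.5 and 125 in F1-L. Neutrophil markers summed to 282, 5858 and 7684 in F1-P and to 77.5, 59.1 and 395 in F1-L. Their part in the levels of the members was not tested.

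**Figure D5:**
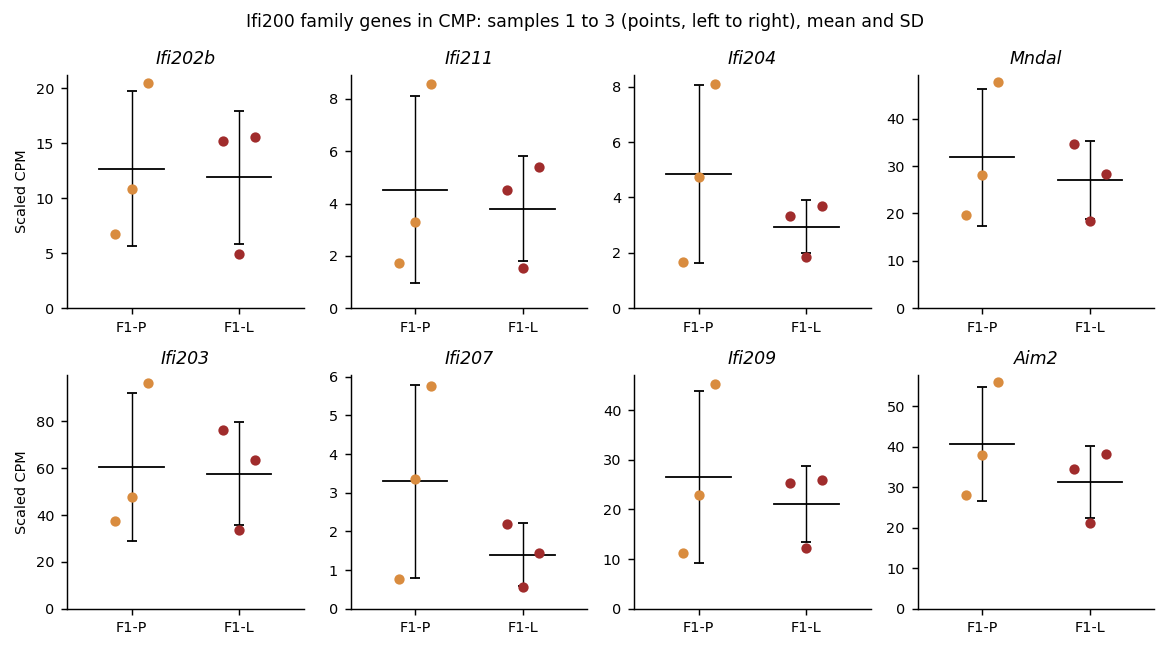
Scaled CPM (vertical axes, from 0) of the 8 members in CMPs of F1-P and F1-L; points are samples 1 to 3 from left to right, horizontal lines the means and bars the SD (n = 3). F1-P replicate 3 is the highest sample for each member, F1-L replicate 2 is low, and the groups overlap in every panel.

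The LSK and CMP tables were normalised separately, so their levels are set side by side without a test. The summed level was 295 to 411 scaled CPM in the 6 NZBW/F1 LSK samples and 94.3 to 288 in the 6 CMP samples. Ifi202b was at 19.9 to 33.7 in LSK and 4.95 to 20.5 in CMPs, which overlapped only at the edge. Within CMPs the order per kb was led by Aim2 at 11.6 ± 4.04 (SD, n = 3) in F1-P and 8.95 ± 2.56 in F1-L, ahead of Ifi203 at 9.03 and 8.60, Mndal at 8.77 and 7.47 and Ifi202b at 7.49 and 7.03, and these did not differ beyond their spread. Ifi209 held 10.5% to 15.7% of the family sum in CMPs and 5.30% to 10.9% in NZBW/F1 LSK.

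Over the 12 LSK samples, the genes with levels most like Ifi202b, by Pearson's r of log2(scaled CPM + 1) among 11331 genes with a mean of at least 5, included Gm8210 (0.998), Rps2-ps13 (0.997), Gm13340 (0.997) and Gm13394 (0.997). Each was far lower in C57BL/6, and Gm13340 had a mean of 310 in F1-P and 1.06 in B6-Y. For these genes too, alignment to the C57BL/6 reference and expression cannot be told apart. Those most like Mndal were Slc26a11 (0.958), Rmc1 (0.954), Gpbp1l1 (0.945), Pisd-ps1 (0.941) and Spns3 (0.941). Slc26a11 had a mean of 10.8 in F1-P and 35.8 in B6-Y. These values describe points that fall into groups by strain, and no p is given.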

How the data were processed

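RNA of sorted LSK (12 samples) and CMPs (6 samples) was sequenced as single-end reads from TruSeq mRNA libraries, which keep no strand. Per the labels and the methods, the authors aligned with STAR 2.6 to mm10 (GRCm38), counted with HTSeq and normalised in edgeR. The deposited values are a signal, CPM of a scaled library size. All columns were used. Within 0.1 read, 100.0% of values were whole multiples of 1 read, so reads were recovered for count tests. Plain CPM had been assumed, and limma was kept as the main test. Columns sum to 832403 to 1387186 (LSK) and 967456 to 1033223 (CMP).

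Identifiers were matched to GENCODE M21, 19770 of 19780 in LSK and 18421 of 18428 in CMP. Genes that reached 1 in 3 or more of the samples compared were fitted on log2(value + 1) with limma 3.58.1 (lmFit, eBayes with trend) in R 4.3.3, with p-values adjusted over all genes tested. edgeR 4.0.16 and DESeq2 1.42.0 gave alternatives, and Python 3.11.15 the tables. The fits were tested on simulated data. Intervals of read ratios are 95% and exact, and cover counting error only. No samples of a group agreed within sampling noise.

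The members and the gene lists were chosen with earlier results of these data known. All 8 members are named, as are cluster genes that were called, up to 4 neighbours in each direction with the largest mean change among those called the same way at both ages, the 2 largest rises and falls of each list, and the 5 genes most like Ifi202b and Mndal, of which 1 is not reported here. Pydc3, Pydc4 and Trex1 are listed genes not analysed here. Of the 6 marker lists, T and NK cell markers summed to 83.5 to 188 scaled CPM in NZBW/F1 LSK and 46.6 to 97.2 in C57BL/6 LSK, and erythroid markers to 36.0 to 2314 and 24.1 to 434.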

Additional observations from a re-analysis of the deposited data

Results flagged for a closer look

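Ifi207 was flagged among the members because the order of the strains was opposite at the younger and the older age in every LSK sample. F1-P (1.85 to 2.77 scaled CPM) lay below B6-Y (3.10 to 4.49), and F1-L (2.58 to 8.21) lay above B6-O (0.537 to 2.07). The difference between the log2 fold changes was 1.98 (SE 0.47, unadjusted p = 0.00137, adjusted p = 0.766 in limma), which did not pass the adjustment. Ifi213, another gene of the cluster, separated in the same way. It was at 6.51 to 8.52 in F1-P and 13.7 to 24.3 in B6-Y, and at 4.65 to 9.69 in F1-L and 4.08 to 4.28 in B6-O. Its difference was 1.56 (SE 0.37, unadjusted p = 0.00146, adjusted p = 0.784 in limma). How many of all genes reverse in this way was not counted. Monocyte, macrophage and dendritic cell markers summed to 89.8 to 140 in F1-P, 129 to 366 in F1-L, 174 to 247 in B6-Y and 75.3 to 195 in B6-O, and their part in the result was not tested.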

How the results depend on the processing

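The number of members called in the strain comparisons depended on the setting. The count in F1-P against B6-Y was 5, and 3 with all 12 LSK samples in one fit (adjusted p = 0.0713 for Ifi203 and 0.0967 for Ifi204 in limma). It ranged from 2 to 5 with each sample left out, and from 4 to 5 with the filter at 2 samples, a setting chosen after seeing the data. The count in F1-L against B6-O was 4. It was 2 with edgeR's quasi-likelihood test, 5 with its likelihood ratio test or all 12 LSK samples in one fit, and 6 with DESeq2, and it ranged from 0 to 6 with each sample left out and from 2 to 6 with the filter at 2 samples. The low ends arose in part because Ifi202b was then not tested. Both ages together gave 5 under every other setting and 4 to 6 with each sample left out. The older Ifi204 call was lost with a pseudocount of 0.1 or 0.5, without a filter, with a mean of at least 5 or with edgeR's quasi-likelihood test, which also lost the younger one. DESeq2 gave 1 call each in B6-O against B6-Y and in the interaction, where limma gave 0. The remaining causes were not tested.

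Genes called overall in F1-L against B6-O fell from 1667 to 978 with a mean of at least 5. At both ages they went from 2869 to 1878 with that filter and to 4674 without a fold minimum. In F1-L against F1-P they numbered 4 in limma and 0 to 734 elsewhere, in B6-O against B6-Y 0 and up to 207, in the interaction 0 and up to 29, and in CMPs 1 and up to 351 (434 with a sample left out, 922 with the filter at 2 samples).

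Direction changed only for differences that were not called. For Aim2 in F1-L against B6-O, edgeR gave −0.00498 and −0.00506. For Ifi203 in the interaction, edgeR's quasi-likelihood test, its likelihood ratio test and DESeq2 gave −0.029, −0.029 and −0.024. With each sample left out, Aim2 ranged from −0.22 to 0.0078 in F1-P against B6-Y, from −0.052 to 0.11 in F1-L against B6-O, from −0.10 to 0.018 at both ages and from −0.15 to 0.00490 in F1-L against F1-P. Ifi202b ranged from −0.28 to 0.068 in F1-L against F1-P and, with 1 read at each age in C57BL/6, equally in the interaction, and Ifi209 from −0.080 to 0.65 in F1-L against F1-P. Ifi203 ranged from −0.50 to 0.042 in B6-O against B6-Y. In the interaction Ifi203 ranged from −0.31 to 0.23, Ifi211 from −0.26 to 0.53 and Mndal from −0.076 to 0.17. In CMPs Ifi202b ranged from −0.45 to 0.38, Ifi203 from −0.31 to 0.36, Ifi209 from −0.66 to 0.29, Ifi211 from −0.52 to 0.38 and Mndal from −0.47 to 0.15.

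Samples with the same replicate number did not deviate together throughout, with correlations of −0.45 to 0.62 between their deviations from the group means. With the replicate number as a block, 5 members were called at each age, Ifi207 being added at the older age (adjusted p = 0.0325 in limma), and 0 in the stage, age, interaction and CMP comparisons.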
